A study of Mus musculus with 12 samples.

Results

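The genes described here act in the primitive streak and in the cells that leave it. They are the transcription factor genes Gsc, Lhx1, Eomes, Mixl1, Evx1, Mesp1, Tbx6 and Foxf1, the growth factor gene Fgf8 and the receptor gene Kdr. Every probe set of the array whose only annotated symbol is one of these 10 genes was taken, which gave 13 of 34945 probe sets with a single symbol and 10 of 18193 genes. They were measured in mouse epiblast stem cells (EpiSC), which are pluripotent cells with the character of post-implantation epiblast, on 12 Affymetrix mouse 430 2.0 arrays. The arrays fell into 4 groups of 3, with haploid EpiSC-2 and haploid EpiSC-1 derived from strain 129Sv, and with diploid EpiSC-2 and diploid EpiSC-1 from strain B6D2F1. Activin A and bFGF in N2B27 medium were common to all 4 groups, and no group carried a named mutation or received a further agent. The numbers 1 and 2 were taken to name different lines within each ploidy, so each group stood for 1 line and its 3 arrays, called biological replicates in the labels, measured the spread within that line. Haploid and 129Sv were the same division of the arrays as diploid and B6D2F1, so ploidy and strain cannot be told apart.

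The primitive streak is the region of the gastrulating embryo where epiblast cells leave the epithelium and become mesoderm or definitive endoderm. Nodal and Wnt signals induce it, and a graded Nodal signal separates an anterior streak, which gives organizer and endoderm, from a posterior streak under BMP influence, which gives mesoderm. Cultured EpiSC resemble late epiblast that is close to this step, and Activin A, which uses the same receptors as Nodal, is part of their medium.

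Values are MAS5 signals, a linear intensity per probe set. The trimmed mean computed from the deposited signals was 500.0 on each array. Array medians ran between 63.4 and 76.3. Arrays of a line correlated at 0.987 to 0.990 on the log2 scale, and the median standard deviation of a probe set within a line was 0.102 to 0.115. A probe set was tested if its mean log2 signal over the 12 arrays was at least 5.97, equal to a signal of 62.6, and was called at a Benjamini-Hochberg adjusted p under 0.05 over all 19837 tested probe sets. Of the 13 probe sets, 9 from 7 genes were tested, and the 4 of Mesp1, Tbx6 and Foxf1 lay under the filter. A gene under the filter level in 1 line passed through its signal in the others, so counts over the tested probe sets describe these alone. Signals of different probe sets are not on a common scale, and no level is set against another gene's. In RNA from whole cultures, fewer cells that express a gene and less RNA per cell cannot be told apart. The 3 arrays of a line limit the precision.

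**Figure D1:**
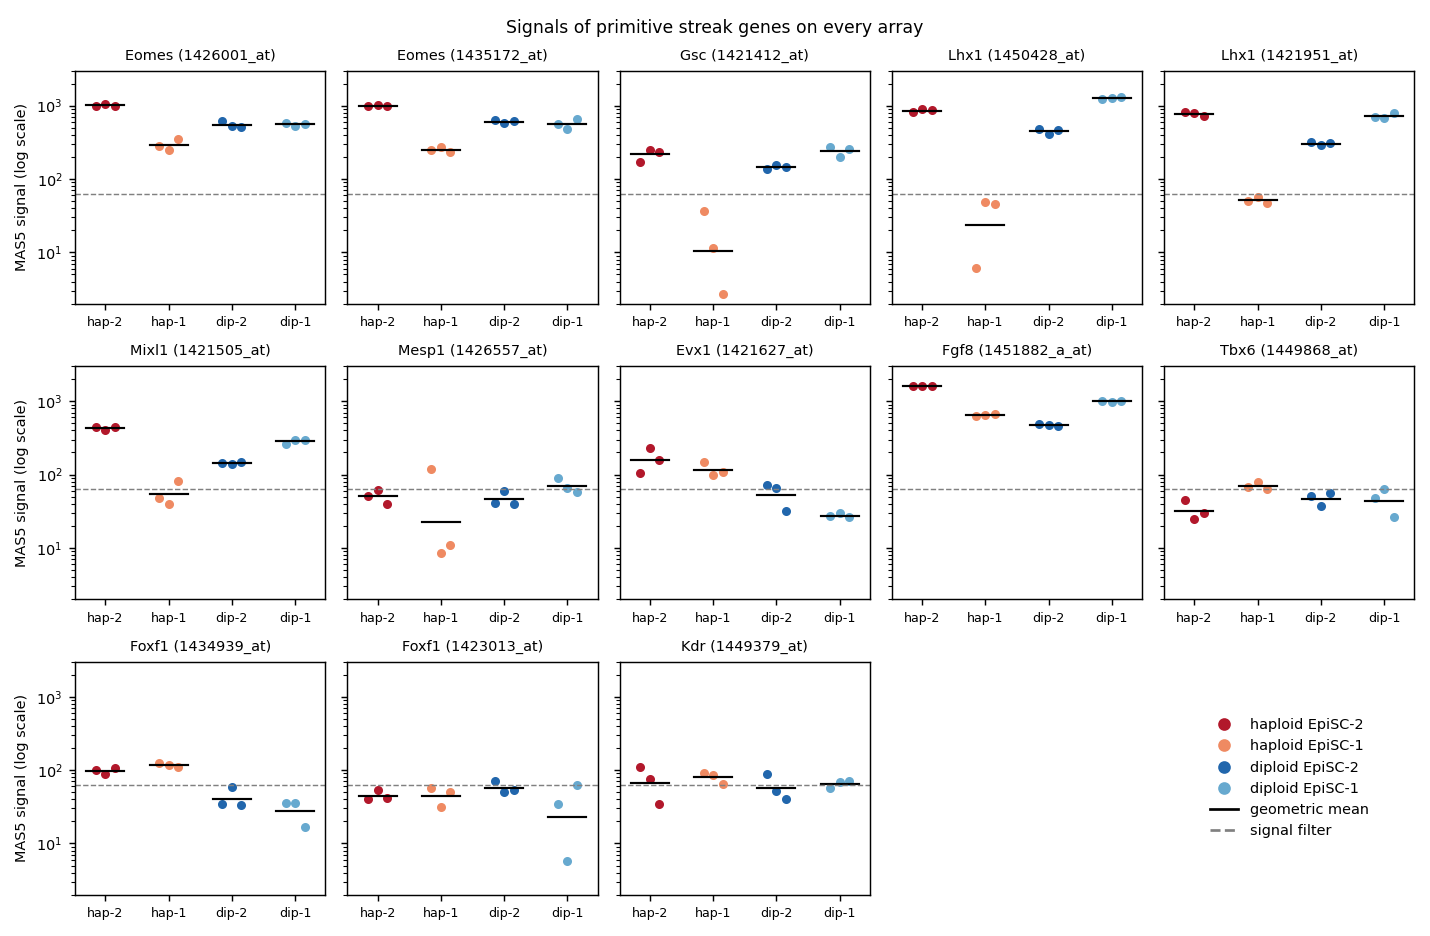
MAS5 signal of each of the 13 probe sets on a log scale, with 1 point per array and a bar at the geometric mean of the 3 arrays of a line. The abbreviations hap-2, hap-1, dip-2 and dip-1 stand for the EpiSC-2 and EpiSC-1 lines of haploid and then of diploid cells, and the dashed line is the signal filter at 62.6. Gsc and both probe sets of Lhx1 lie under the dashed line in all 3 haploid EpiSC-1 arrays and above it in the 9 other arrays.

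The first comparison asked how the 2 haploid lines differ. Genes of the anterior streak and of mesendoderm were high in haploid EpiSC-2 and low in haploid EpiSC-1. Eomes was 3.49-fold and Fgf8 2.52-fold higher in haploid EpiSC-2. Lhx1, Mixl1 and Gsc differed in the same direction, with folds of uncertain size, since most of their haploid EpiSC-1 signals lay under the filter level. Evx1 and Kdr were not called. Of the 9 tested probe sets, 7 were called, and 49.5% of all tested probe sets were called in this comparison. All 7 were higher in haploid EpiSC-2, a direction found for 22.8% of all tested probe sets, and all 7 were at least 2-fold higher, which held for 1.97% of them. The signals of the haploid lines did not overlap for these 7, as for 58.5% of all tested probe sets. The members were chosen with earlier results of these data known. Gsc, Lhx1 and Mixl1 also passed the filter through the lines where they are high. These shares therefore describe the members and are no test.

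Gsc and Lhx1 are genes of the anterior end of the streak. Gsc encodes the organizer homeodomain factor Goosecoid, and Lhx1 encodes a LIM-homeodomain factor required for head formation. Their upstream sequences are shown because these genes had the widest range between the lines. They are the 250 bases before the annotated start from RefSeq, build GRCm38.p6, written 5′ to 3′ on the strand of the gene, with letters in capitals where a searched motif matched.
Gsc, chr12:104473237-104473486, minus strand: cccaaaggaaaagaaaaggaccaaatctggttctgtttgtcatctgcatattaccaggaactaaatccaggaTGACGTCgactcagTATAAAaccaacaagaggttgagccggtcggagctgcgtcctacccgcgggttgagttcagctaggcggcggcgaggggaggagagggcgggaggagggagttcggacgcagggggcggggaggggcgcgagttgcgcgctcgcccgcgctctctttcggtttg
Lhx1, chr11:84525535-84525784, minus strand: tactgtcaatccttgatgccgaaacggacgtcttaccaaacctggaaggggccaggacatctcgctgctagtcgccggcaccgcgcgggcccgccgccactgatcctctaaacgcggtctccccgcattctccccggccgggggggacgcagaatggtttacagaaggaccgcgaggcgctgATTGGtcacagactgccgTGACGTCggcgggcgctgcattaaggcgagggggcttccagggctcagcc
The Gsc window held TGACGTC, the core of a cAMP response element, starting 178 bases before the start, and TATAAA starting 164 bases before it. The Lhx1 window held the same TGACGTC starting 50 bases before the start, and CCAAT on the reverse strand, read as ATTGG, starting 68 bases before it. TGACGTC is present in 2.78% of the 32851 windows of this length, TATAAA in 12.4% and CCAAT in 33.8%. These motifs were among 4 added after the sequences were read, so the shares do not test what Gsc and Lhx1 have in common. A match describes the letters alone.

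Gsc (1421412_at, chromosome 12) had signals of 172, 252 and 236 on the haploid EpiSC-2 arrays, against 37.0, 11.6 and 2.67 in haploid EpiSC-1. The diploid signals were 139, 157 and 147 in EpiSC-2 and 277, 201 and 254 in EpiSC-1. Haploid EpiSC-1 lay below every other array, and haploid EpiSC-2 overlapped diploid EpiSC-1. Haploid EpiSC-2 was above haploid EpiSC-1 by 4.37 ± 0.61 (log2, SE, n = 3 each, limma adjusted p = 3.659e-05). The size of this difference is uncertain, since the haploid EpiSC-1 signals are far under the filter level. It was 2.96 with a pseudocount of 16 and between 3.39 and 5.28 when 1 haploid EpiSC-1 array was left out, the lowest value being without replicate 3 and the highest without replicate 1. Against both diploid lines, haploid EpiSC-1 differed by -4.17 ± 0.53 (limma adjusted p = 5.511e-06), while haploid EpiSC-2 differed by 0.20 ± 0.53 (limma adjusted p = 0.7585). Both SE values include the spread of the dim haploid EpiSC-1 arrays.

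Lhx1 (chromosome 11) was read by 2 probe sets. The probe set 1421951_at gave 820.2, 782 and 733 on the haploid EpiSC-2 arrays, against 50.3, 56.1 and 47.5 in haploid EpiSC-1. Its diploid signals were 319.5, 288 and 308 in EpiSC-2 and 705, 689 and 793 in EpiSC-1. The haploid lines were the 2 ends of its range, with haploid EpiSC-2 overlapping diploid EpiSC-1. The brighter probe set 1450428_at gave 821, 888 and 864 on the haploid EpiSC-2 arrays, against 6.09, 49.2 and 45.6 in haploid EpiSC-1. Its diploid signals were 484, 413 and 459 in EpiSC-2 and 1239.9, 1272 and 1322 in EpiSC-1, so here diploid EpiSC-1 was highest and no line overlapped another. Haploid EpiSC-2 exceeded haploid EpiSC-1 by 3.92 ± 0.10 on 1421951_at (log2, limma adjusted p = 2.321e-12) and by 5.17 ± 0.53 on 1450428_at (limma adjusted p = 1.81e-06). The second value rests on 1 dim array in part: without haploid EpiSC-1 replicate 1 it was 4.18, and with a pseudocount of 16 it was 4.29. Haploid EpiSC-1 fell below both diploid lines on each probe set, by 3.20 and 4.99 on the log2 scale. The probe sets gave different calls for haploid EpiSC-2 against both diploid lines, with SE values that differed widely. The difference was 0.72 ± 0.09 on 1421951_at (limma adjusted p = 5.327e-06, with overlapping arrays) and 0.18 ± 0.46 on 1450428_at (limma adjusted p = 0.7588). The SE on 1450428_at includes the spread of its dim haploid EpiSC-1 arrays. Against diploid EpiSC-1 alone the difference was 0.10 on 1421951_at (limma adjusted p = 0.4479).

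Eomes and Mixl1 are expressed in the mesendoderm of the streak. Eomes encodes a T-box factor induced by Nodal that is required for endoderm and for the exit of mesoderm cells, and Mixl1 encodes a homeodomain factor needed for normal mesendoderm. The Eomes window from the same source is shown for its core promoter letters, with motif matches in capitals.
Eomes, chr9:118477939-118478188, plus strand: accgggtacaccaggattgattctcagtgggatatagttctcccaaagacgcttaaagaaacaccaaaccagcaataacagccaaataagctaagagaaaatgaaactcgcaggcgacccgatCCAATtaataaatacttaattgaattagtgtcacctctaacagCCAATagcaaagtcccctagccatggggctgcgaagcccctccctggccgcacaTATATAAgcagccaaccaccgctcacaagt
It held TATATAA starting 30 bases before the start, a form present in 3.04% of all windows, and CCAAT starting 127 and 84 bases before it. These motifs too were added after the sequences were read. None of the motifs searched for Nodal, Wnt or T-box factors matched in the windows of Eomes, Gsc or Lhx1, which says only that those letters are not in these windows.

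Eomes (1426001_at, chromosome 9) had signals of 998, 1040.1 and 1001 on the haploid EpiSC-2 arrays, against 278, 249 and 355 in haploid EpiSC-1. The diploid signals were 612, 526 and 513 in EpiSC-2 and 579, 520.4 and 565 in EpiSC-1. The diploid lines overlapped and lay between the haploid lines, neither of which overlapped them. Haploid EpiSC-2 was higher than haploid EpiSC-1 by 1.80 ± 0.11 (log2, limma adjusted p = 1.315e-08). The other probe set, 1435172_at, gave the same order, with means of 998 ± 28.1 in haploid EpiSC-2, 252 ± 17.1 in haploid EpiSC-1, 606 ± 27.9 in diploid EpiSC-2 and 571 ± 92.3 in diploid EpiSC-1 (SD, n = 3 each). On it the haploid lines differed by 1.98 ± 0.10 (limma adjusted p = 1.739e-09). Against both diploid lines, the differences of haploid EpiSC-2 were 0.88 and 0.77 and those of haploid EpiSC-1 were -0.92 and -1.22 on the 2 probe sets, with the same diploid arrays in both comparisons.

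Mixl1 (1421505_at, chromosome 1) had signals of 446, 406 and 449 on the haploid EpiSC-2 arrays, against 48.6, 39.6 and 82.7 in haploid EpiSC-1. The diploid signals were 143, 139 and 147 in EpiSC-2 and 265, 292 and 293 in EpiSC-1. No line overlapped another, and the haploid lines were again the highest and the lowest. Haploid EpiSC-2 exceeded haploid EpiSC-1 by 2.999 ± 0.20 (log2, limma adjusted p = 3.049e-08), and by 2.67 with a pseudocount of 16. Against both diploid lines, haploid EpiSC-2 was higher by 1.11 ± 0.18 (limma adjusted p = 7.425e-05), while haploid EpiSC-1 differed by -1.89 ± 0.18 (limma adjusted p = 2.059e-07).

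Fgf8 encodes a secreted fibroblast growth factor that streak cells need in order to migrate away. Fgf8 (1451882_a_at, chromosome 19) had signals of 1623, 1611 and 1635 on the haploid EpiSC-2 arrays, against 620.2, 643 and 671 in haploid EpiSC-1. The diploid signals were 490.2, 469 and 466 in EpiSC-2 and 1019.85, 968 and 1009 in EpiSC-1. Its spread within a line was narrow and no line overlapped another, with haploid EpiSC-2 above both diploid lines and haploid EpiSC-1 between them. Haploid EpiSC-2 was higher than haploid EpiSC-1 by 1.33 ± 0.06 (log2, limma adjusted p = 3.074e-10) and higher than both diploid lines by 1.24 ± 0.05 (limma adjusted p = 3.67e-11). Haploid EpiSC-1 differed from both diploid lines by -0.10 (limma adjusted p = 0.1), which became -0.29 and was called with arrays centred on their medians.

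Evx1, which encodes an even-skipped type homeodomain factor of the posterior streak, followed another pattern. Its upstream window is shown from the same source, since it is the tested gene in which both haploid lines were high.
Evx1, chr6:52313248-52313497, plus strand: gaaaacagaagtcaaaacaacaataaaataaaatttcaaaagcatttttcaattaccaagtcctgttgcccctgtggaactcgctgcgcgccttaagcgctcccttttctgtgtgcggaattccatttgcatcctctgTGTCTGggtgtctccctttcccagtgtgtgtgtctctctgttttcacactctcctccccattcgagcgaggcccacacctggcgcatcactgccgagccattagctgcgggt
The capitals are CAGACA on the reverse strand, read as TGTCTG, the letters bound by SMAD factors, starting 112 bases before the start and present in 17.1% of all windows. Evx1 (1421627_at, chromosome 6) had signals of 104, 231 and 159 in haploid EpiSC-2 and 148, 99.98 and 109 in haploid EpiSC-1, against 71.5, 64.7 and 31.9 in diploid EpiSC-2 and 27.0, 29.5 and 26.6 in diploid EpiSC-1. The haploid lines overlapped each other, and every haploid array was above every diploid array. Haploid EpiSC-2 was higher than both diploid lines by 2.03 ± 0.29 (log2, limma adjusted p = 2.591e-05) and haploid EpiSC-1 by 1.62 ± 0.29 (limma adjusted p = 1.659e-04), with the diploid arrays shared. The haploid lines differed by 0.42 (limma adjusted p = 0.3283). The diploid signals were near the filter level or under it, so the sizes of these differences are uncertain.

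Mesp1, Tbx6 and Foxf1 mark mesoderm that has left the streak, and lay under the filter. Mesp1 encodes a basic helix-loop-helix factor of nascent and cardiac mesoderm, Tbx6 a T-box factor of presomitic mesoderm, and Foxf1 a forkhead factor of lateral and extra-embryonic mesoderm. Foxf1 (1434939_at, chromosome 8) had 99.6, 87.4 and 108 in haploid EpiSC-2 and 125, 118 and 109 in haploid EpiSC-1, against 34.2, 58.8 and 33.3 in diploid EpiSC-2 and 35.4, 35.9 and 16.6 in diploid EpiSC-1. Every haploid array was above every diploid one. In a fit without the filter, over 34945 probe sets, haploid EpiSC-2 was higher than both diploid lines by 1.55 (log2, limma adjusted p = 7.091e-04; 37.6% of all probe sets were called) and haploid EpiSC-1 by 1.81 (limma adjusted p = 1.339e-04; 43.2% were called). The second Foxf1 probe set, 1423013_at, did not follow, with signals of 40.5 to 52.8 in haploid EpiSC-2, 31.4 to 57.5 in haploid EpiSC-1, 50.2 to 71.4 in diploid EpiSC-2 and 5.77 to 63.2 in diploid EpiSC-1.

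Mesp1 (1426557_at, chromosome 7) had signals of 51.5, 61.7 and 39.9 in haploid EpiSC-2, 117, 8.65 and 11.05 in haploid EpiSC-1, 40.8, 59.9 and 39.3 in diploid EpiSC-2, and 89.6, 66.1 and 57.1 in diploid EpiSC-1. The haploid EpiSC-1 arrays ranged from the lowest to the highest of all, and no neighbours in the order of lines were called apart. Tbx6 (1449868_at, chromosome 7) had 44.7, 24.5 and 30.0 on the haploid EpiSC-2 arrays, against 67.1, 79.0 and 62.9 in haploid EpiSC-1, and 26.7 to 64.2 over both diploid lines. Without the filter it differed by -1.11 in haploid EpiSC-2 minus haploid EpiSC-1 (log2, limma adjusted p = 0.04877), where 27.9% of all 34945 probe sets were called. This was the only untested member called between the haploid lines in that fit. Its signals were near or under the filter level on every array.

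Kdr encodes a VEGF receptor of the mesoderm cells that form blood vessels and blood. Kdr (1449379_at, chromosome 5) had signals of 110.0, 75.9 and 34.2 in haploid EpiSC-2, 90.2, 85.3 and 65.1 in haploid EpiSC-1, 88.4, 51.7 and 40.4 in diploid EpiSC-2, and 56.4, 68.3 and 70.7 in diploid EpiSC-1. All 4 lines overlapped, and Kdr was called in no comparison. The difference between the haploid lines was -0.27 ± 0.39 (log2, SE, limma adjusted p = 0.5898).

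**Figure D2:**
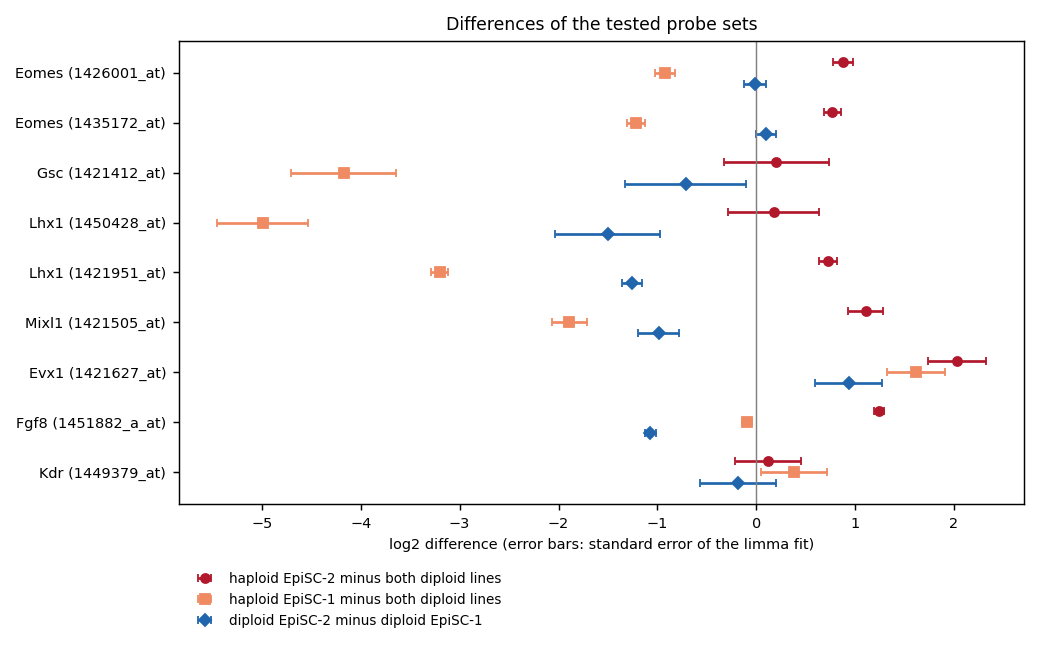
Log2 differences of the 9 tested probe sets, with the standard error of the limma fit as bars, for haploid EpiSC-2 minus both diploid lines (circles), haploid EpiSC-1 minus both diploid lines (squares) and diploid EpiSC-2 minus diploid EpiSC-1 (diamonds). The first 2 comparisons share the diploid arrays. The squares of Eomes, Mixl1 and Lhx1 (1421951_at) lie left of 0 and their circles right of it, while both lie right of 0 for Evx1.

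Each haploid line was then set against both diploid lines, by their mean. Haploid EpiSC-2 was above them in Eomes, Mixl1, Fgf8, Evx1 and 1 probe set of Lhx1. Of the 9 tested probe sets, 6 were called, against 61.5% of all tested probe sets, and all 6 were higher, a direction found for 33.0% of all. Haploid EpiSC-1 was below them in Eomes, Gsc, Lhx1 and Mixl1 and above them in Evx1. Here 7 of 9 were called, against 69.0% of all tested probe sets, and 6 of the 7 were lower, against 31.2% of all. These shares of called members are near those of all probe sets. Both Eomes probe sets, Mixl1 and Lhx1 (1421951_at) were called above the mean of the diploid lines in haploid EpiSC-2 and below it in haploid EpiSC-1. Of all tested probe sets, 524, or 2.64%, showed these calls in opposite directions. The members were chosen with earlier results of these data known, so this share is no test. For Lhx1 (1421951_at), haploid EpiSC-2 overlapped diploid EpiSC-1. With arrays centred on their medians instead, the median of all tested probe sets moved to -0.14 in haploid EpiSC-1 minus both diploid lines, against 0.06 before, and the split was 5330 higher and 8528 lower, against 7504 and 6187. Between the haploid lines the centring gave 6789 higher and 3363 lower, against 4522 and 5305, with a median of 0.12 against -0.04. The members' calls named in this paragraph held in that setting. Some chromosomes shifted as a whole. In haploid EpiSC-1 minus both diploid lines the median of tested probe sets was 0.32 on chromosome 6, the direction of Evx1. It was -0.28 on chromosome 11, the direction of Lhx1, and 0.22 on chromosome 19, while Fgf8 there differed by -0.10 and was not called. In haploid EpiSC-2 minus both diploid lines these medians were 0.03, -0.30 and 0.05, while Lhx1 differed by 0.72 and 0.18. In haploid EpiSC-2 minus haploid EpiSC-1 they were -0.30, -0.07 and -0.21, while Lhx1 and Fgf8 were higher. The part of these chromosome shifts in the members' differences was not tested.

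The series compared haploid with diploid cells. Evx1 and 1 probe set of Foxf1 were higher on every haploid array than on any diploid array, while for Eomes and Mixl1 the haploid lines lay on opposite sides of the diploid lines. With the 4 lines as a random block, since arrays of a line are not independent, none of the 9 tested probe sets was called, while 15.9% of all tested probe sets were. At an unadjusted p under 0.05 there was 1, Evx1. Without the line block limma called 1, also Evx1, where 46.0% of all tested probe sets were called, and with line means as the units it called 0, against 3.03% of all. Evx1 differed by 1.82 ± 0.75 (log2, SE, limma adjusted p = 0.1129), with haploid and diploid arrays that did not overlap, as for 28.8% of all tested probe sets. Without the filter, where 16.2% of all probe sets were called, Evx1 (limma adjusted p = 0.01948) and Foxf1 (1434939_at, 1.68 ± 0.47, limma adjusted p = 0.02135) were called. The other differences were -1.98 for Gsc, -2.41 and -1.24 for Lhx1, -0.39 for Mixl1, -0.02 and -0.22 for Eomes, 0.57 for Fgf8 and 0.25 for Kdr. For Gsc, Lhx1, Mixl1 and Eomes these means stand between a low and a higher haploid line. Leaving out haploid EpiSC-2 gave lower calls for both Eomes, both Lhx1 and the Mixl1 probe sets, with 21.5% of all probe sets called. Leaving out haploid EpiSC-1 gave higher calls for Eomes (1426001_at, 0.88, limma adjusted p = 0.01393) and Fgf8 (1.24, limma adjusted p = 0.02022), with 10.2% called. Leaving out diploid EpiSC-2 gave a higher call for Evx1 (2.29, limma adjusted p = 0.02131), with 20.4% called, and leaving out diploid EpiSC-1 one for Fgf8 (1.11, limma adjusted p = 0.04084), with 21.1% called.

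The diploid lines also differed from each other. Lhx1, Mixl1 and Fgf8 were lower in diploid EpiSC-2 than in diploid EpiSC-1, and Evx1 was higher. The difference was -1.26 for Lhx1 (1421951_at, limma adjusted p = 1.374e-07), -1.50 for Lhx1 (1450428_at, limma adjusted p = 0.02763), -0.99 for Mixl1 (limma adjusted p = 9.426e-04), -1.07 for Fgf8 (limma adjusted p = 1.514e-09) and 0.93 for Evx1 (limma adjusted p = 0.03013). For Eomes it was -0.01 and 0.10, and for Gsc, whose arrays did not overlap, it was -0.71 ± 0.61 (SE, limma adjusted p = 0.3501). The SE of Gsc includes the spread of its dim haploid EpiSC-1 arrays. Of the 9 tested probe sets, 5 were called, against 53.3% of all tested probe sets, and 4 were lower, against 30.9% of all. The calls of Evx1 and of Lhx1 (1450428_at) were lost when single arrays were left out.

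Ordered by signal, Mixl1 and Lhx1 (1421951_at) began with haploid EpiSC-2, went on through diploid EpiSC-1 and then EpiSC-2, and ended with haploid EpiSC-1. All neighbours were called apart for Mixl1, and for Lhx1 (1421951_at) all but the first pair. Both Eomes probe sets had haploid EpiSC-2 first and haploid EpiSC-1 last, with diploid lines between that were not called apart. Gsc and Lhx1 (1450428_at) began with diploid EpiSC-1, followed by haploid EpiSC-2 and diploid EpiSC-2, with no call between these neighbours, and ended with haploid EpiSC-1, which was called below diploid EpiSC-2. For Lhx1 (1450428_at) the arrays of these uncalled neighbours did not overlap, at log2 differences of 0.58 and 0.93 and an SE of 0.53 that includes the spread of the dim haploid EpiSC-1 arrays. For Gsc, haploid EpiSC-2 did not overlap diploid EpiSC-2 either, at 0.56 with an SE of 0.61. That SE too includes the haploid EpiSC-1 spread, an SD of 1.90 on the log2 scale. Fgf8 began with haploid EpiSC-2, had diploid EpiSC-1 and haploid EpiSC-1 next and diploid EpiSC-2 last, and all neighbours were called apart. Evx1 had the haploid lines first, which were not called apart, then diploid EpiSC-2 and diploid EpiSC-1, which were. In these pairs, 62.3% of all tested probe sets were called between haploid EpiSC-2 and diploid EpiSC-2, 57.5% between haploid EpiSC-2 and diploid EpiSC-1, 67.1% between haploid EpiSC-1 and diploid EpiSC-2, and 66.9% between haploid EpiSC-1 and diploid EpiSC-1.

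The genes most like each member were found by the root mean square difference of log2 signals over the 12 arrays, after each probe set was centred on its own mean, so that a lower value is a closer match. For Lhx1 (1450428_at) they were Cer1, a secreted Nodal antagonist, at 0.628, and Fgf5, a growth factor gene of the epiblast, at 0.755. Next came Otx2, an anterior homeobox gene, at 0.813. This Lhx1 probe set itself had a root mean square of 2.36 about its mean. For Gsc they were Spink1 at 0.639, another probe set of Fgf5 at 0.718 and Lhx1 (1421951_at) at 0.899, with 2.02 for Gsc itself. Lhx1 (1450428_at) was further from Gsc, at 1.48. The Lhx1 probe sets were 1.01 apart, further than 1450428_at was from Cer1, Fgf5 or Otx2. Lipa was among the closest to both Eomes (1426001_at) and Mixl1, at 0.232 and 0.294, by different probe sets. Mixl1 was also close to Fzd5, a Wnt receptor gene, at 0.352 and Flt1, a VEGF receptor gene, at 0.360, against 1.16 for Mixl1 itself. Fgf8 was closest to Ptch1, the Hedgehog receptor gene, at 0.159, against 0.67 for Fgf8 itself. Evx1 was closest to Daam1 at 0.357, against 1.05 for itself, and Kdr to Taok1 at 0.292, against 0.474 for itself, so the match of Kdr is weak. Fam172a at 0.231 and Dido1 at 0.234 were the other 2 for Eomes, which had 0.65 itself.

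Other genes of these pathways were read from lists, each gene by its brightest probe set, in the fit over all tested probe sets, of which 22.8% were called higher and 26.7% lower between the haploid lines. The lists too were chosen with earlier results of these data known, so their counts are descriptions. The list of anterior streak, organizer and definitive endoderm genes differed most widely between the haploid lines. Of its 16 tested genes, 13 were higher in haploid EpiSC-2, 1 was lower and 2 were not called, with a median log2 difference of 1.60 against -0.04 for all tested probe sets. The endoderm factor gene Sox17 had mean signals of 1341 in haploid EpiSC-2 and 33.3 in haploid EpiSC-1, against 371 in diploid EpiSC-2 and 624 in diploid EpiSC-1. Its difference between the haploid lines was 5.33 ± 0.10 (log2, SE), and it was 5.02 for Cer1 and 4.96 for Otx2. The list of other streak and nascent mesoderm genes had 14 higher, 1 lower and 4 not called of 19, with a median of 0.63. It included the Nodal co-receptor gene Cfc1 (2.91), the Wnt target Sp5 (2.29) and the apelin receptor gene Aplnr (1.16). Of the 11 tested genes of later mesoderm, 2 were higher and 1 was lower, with a median of 0.14.

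Of the signalling lists, the FGF list had 9 higher and 1 lower of 17 in haploid EpiSC-2 minus haploid EpiSC-1, with a median of 0.23. Fgf5 had mean signals of 2424 in haploid EpiSC-2 and 86.9 in haploid EpiSC-1, a difference of 4.86, and Fgf15 differed by 1.42 and Fgf4 by 0.90. The Wnt list had 12 higher and 7 lower of 28, led by Fzd5 (2.46), Sp5 and the stem cell receptor gene Lgr5 (1.26). The Nodal and Activin list was split, with 9 higher and 8 lower of 22, and its largest differences were in Cer1, in Fst (3.07), which encodes the Activin-binding protein follistatin, and in Cfc1. In the BMP and Hedgehog list, 6 were higher and 8 lower of 23, shares near those of all tested probe sets. The Hedgehog ligand gene Shh differed by 4.62 and its receptor gene Ptch1 by 1.41, while the BMP target Id2 differed by -1.84. In the VEGF and endothelium list, 3 were higher and 5 lower of 12, with Flt1 at 2.47, Nrp2 at -1.73 and Nrp1 at -1.22. Between the haploid lines, the sizes for Sox17, Cer1, Cfc1, Lgr5 and Shh are uncertain. Their mean haploid EpiSC-1 signals lay under the filter level.

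In haploid minus diploid, 9.37% of all tested probe sets were called higher and 6.54% lower. Of the 11 tested later mesoderm genes, 7 were higher in haploid cells and 4 were not called, with a median of 1.77 against 0.03 for all tested probe sets. This list had 24 genes on the array, and the others lay under the filter. Runx1 and Pax3 passed it through the haploid lines. Their mean signals in diploid EpiSC-2 and EpiSC-1 were 19.8 and 35.3 for Runx1, and 18.3 and 30.1 for Pax3. The count and the median therefore depend in part on the filter and are no test. The mesenchymal factor gene Twist1 differed by 4.21 ± 0.70, the blood factor gene Runx1 by 4.20 ± 0.46 and the dermomyotome gene Pax3 by 3.18 ± 0.95 (log2 ± SE, with 2 lines and 6 arrays per ploidy). The list of other streak genes had 2 higher, which were Cdx2 (5.77) and Nkx1-2 (2.15), and 4 lower of 19, among them Fgf4 (-2.15). In the BMP and Hedgehog list 10 of 23 were higher, including Bmp5 (3.32), Bmp4 (3.14) and Id1 (2.26). In the Wnt list 7 of 28 were higher, with Wnt5a at 4.59, Nkd1 at 1.99 and Fzd1 at 1.97. The FGF list had 5 higher and 1 lower of 17, with Dusp4 at 1.60 and Spry4 at 1.28. The Nodal and Activin list had 5 higher and 1 lower of 22, with Inhba at 1.98, Lefty1 at 1.09 and Tdgf1 at -1.07. The anterior list had 3 higher, Frzb (1.93), Lefty1 and Gpc4 (0.66), and 1 lower of 16. In the VEGF list 4 of 12 were higher, led by Vegfc at 4.39, Nrp2 at 3.84 and Nrp1 at 3.75. The sizes for Twist1, Runx1, Pax3, Cdx2, Bmp5, Wnt5a and Vegfc are uncertain, since their mean signals in both diploid lines lay under the filter level.

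**Figure D3:**
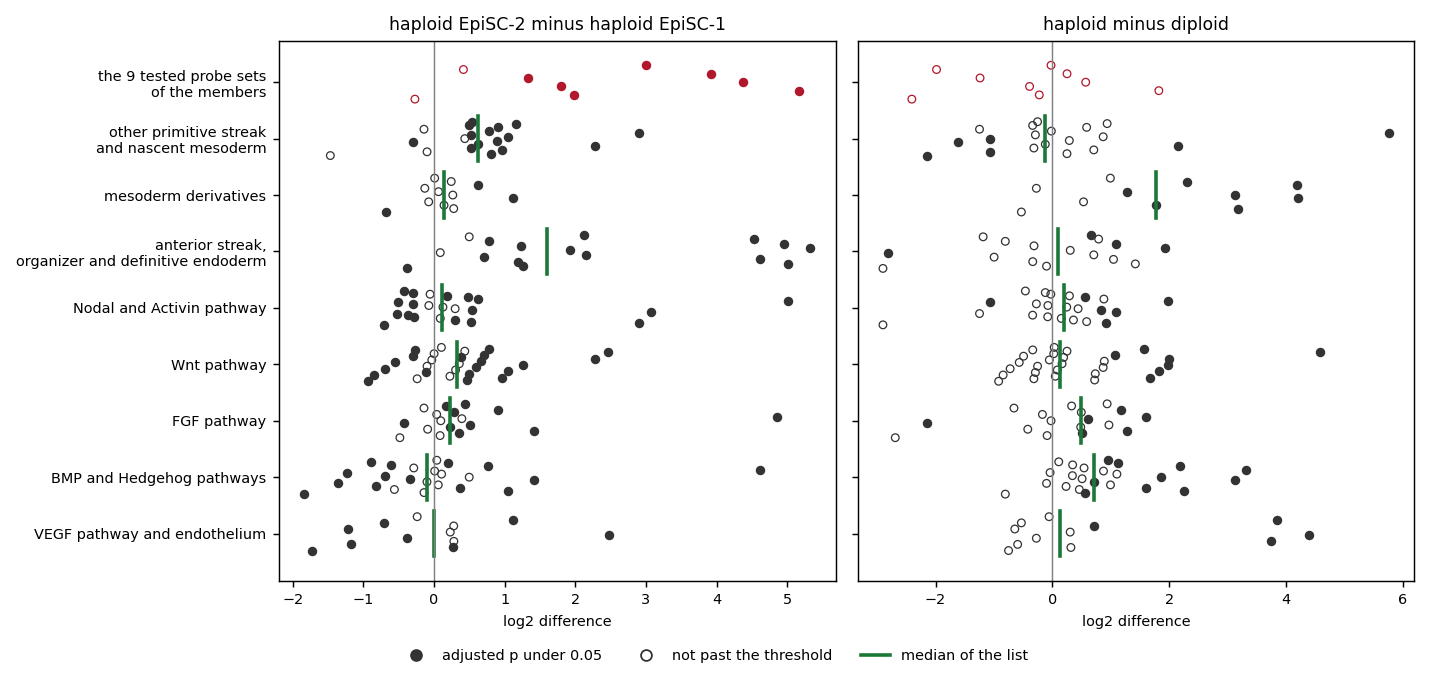
Log2 differences of the tested genes of each pathway list, in haploid EpiSC-2 minus haploid EpiSC-1 on the left and haploid minus diploid on the right. Filled points passed an adjusted p under 0.05, open points did not, green bars are list medians, and the top line shows the 9 tested probe sets of the members. The anterior list reaches 5.33 on the left, and the later mesoderm list has a median of 1.77 on the right.

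Markers of cell types were summed over their brightest probe sets, so bright genes weigh most in a sum. The sum of 7 definitive endoderm genes was 4986 to 5426 in haploid EpiSC-2, 879 to 967 in haploid EpiSC-1, 2027 to 2298 in diploid EpiSC-2 and 3452 to 3867 in diploid EpiSC-1, in the same order of lines as Lhx1 (1421951_at) and Mixl1. These 7 are also on the anterior streak list. All 7 were at or above the filter level in haploid EpiSC-2, and 4 in haploid EpiSC-1. The sum of 16 fibroblast genes was 53950 to 55340 in haploid EpiSC-2 and 53280 to 54840 in haploid EpiSC-1, against 25230 to 27210 in diploid EpiSC-2 and 6928 to 7477 in diploid EpiSC-1, so it was higher in both haploid lines, as were Evx1, Foxf1 (1434939_at), Twist1 and Runx1. The sources used here do not say whether feeder cells were present. Of the fibroblast genes, 15 were at or above the filter level in each haploid line, 11 in diploid EpiSC-2 and 7 in diploid EpiSC-1. In haploid minus diploid, 11 of the 14 tested were called higher, against 9.37% of all tested probe sets, and 3 were not called. Bright Vim, not called, had mean signals of 17080 and 19070 in haploid EpiSC-2 and EpiSC-1, and 19180 and 5280 in diploid EpiSC-2 and EpiSC-1. Thy1, also not called, was highest in diploid EpiSC-1, at 203. The sum of 10 epiblast genes, all at or above the filter level in every line, was 39220 to 40560 in haploid EpiSC-2 and 28020 to 28180 in haploid EpiSC-1, against 54130 to 55540 in diploid EpiSC-2 and 62090 to 65640 in diploid EpiSC-1. In haploid minus diploid, 4 of the 10 were called lower, against 6.54% of all tested probe sets, 5 were not called and 1, Sox2, was higher. Mean signals of Sox2 were 3383 in haploid EpiSC-2 and 4537 in haploid EpiSC-1, against 1175 in diploid EpiSC-2 and 1005 in diploid EpiSC-1. The part of these markers in the members' differences was not tested. Of 9 endothelial genes, 1 was at or above the filter level in each line, and their summed signal was 264 to 339 in haploid EpiSC-2, 298 to 317 in haploid EpiSC-1, 279.9 to 355 in diploid EpiSC-2 and 228 to 359 in diploid EpiSC-1, with overlapping lines as for Kdr. The sum of 7 trophoblast genes, which include Cdx2, was 972 to 1114 in haploid EpiSC-2 (4 genes at or above the filter level), 1705 to 1981 in haploid EpiSC-1 (5 genes), 567 to 610.4 in diploid EpiSC-2 (4 genes) and 375 to 435 in diploid EpiSC-1 (2 genes). Cdx2, also on the streak list, and Tfap2c weighed most in haploid EpiSC-1, with means of 991 and 593. Krt7, Ascl2 and Elf5 had lower means there than in either diploid line, Esx1 was higher and Hand1 lay between. Of 10 extra-embryonic endoderm genes, 3 reached it in haploid EpiSC-2, 2 in haploid EpiSC-1 and 3 in each diploid line, and of 8 neural progenitor genes, 3 in each haploid line, 3 in diploid EpiSC-2 and 2 in diploid EpiSC-1.

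**Figure D4:**
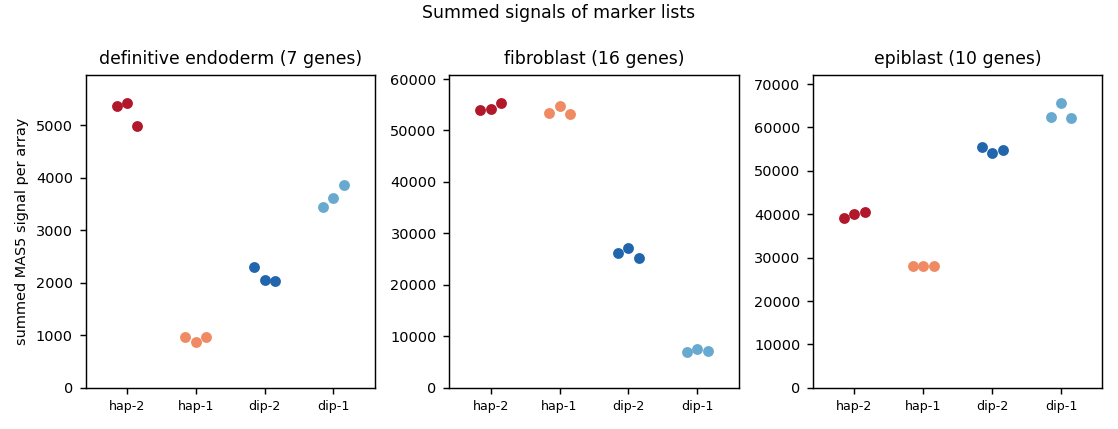
Summed MAS5 signal per array of 7 definitive endoderm, 16 fibroblast and 10 epiblast marker genes, with 1 point per array. The lines are abbreviated as hap-2 and hap-1 for haploid cells and as dip-2 and dip-1 for diploid cells, and each vertical axis starts at 0. Haploid EpiSC-1 has the lowest endoderm and epiblast sums, and the haploid lines have the 2 highest fibroblast sums.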

How the data were processed

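RNA of 12 cultures was hybridised to Affymetrix mouse 430 2.0 arrays after Trizol extraction and biotin labelling, per the labels' protocols. The deposited values are linear MAS5 signal intensities, per the submitters' processing notes. Their MAS5 version and scaling target are not given in the sources used here. On each array the trimmed mean without 2% at each end was 500.0. Of 45101 probe sets, 64 controls, 932 with several symbols and 9160 with none in the platform annotation were left out. Neither detection calls nor scan dates were used, and no lower bounds on folds are given.

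Signals were used as log2 of the deposited intensities, with no pseudocount and no further normalization. Lines were compared in limma 3.58.1 (R 4.3.3) as 4 group means with an intensity trend. Haploid and diploid cells were compared with line as a random block (duplicateCorrelation, statmod 1.5.0; correlation 0.769). Tests were two-sided, with Benjamini-Hochberg adjustment over 19837 probe sets. The limma fits of haploid EpiSC-2 minus haploid EpiSC-1 and of haploid minus diploid were tried on simulated data. The other comparisons and steps were not. Replicate numbers recur in the 4 groups, but same-numbered arrays did not deviate together (18 pairs, r between -0.04 and 0.08), so arrays were not paired.

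The members, the pathway lists and the marker lists were chosen with earlier results of these data known. All members were named, and from each pathway list up to 3 called genes with the largest differences and arrays that did not overlap, in each of 2 comparisons; the 3 closest genes were found per member. Upstream windows came from RefSeq (GRCm38.p6), where 7 of 10 members matched. In them 7 motifs were searched on both strands, namely TCACACC for T-box factors (held by 3.33% of 32851 windows), CTTTGAA (4.46%) or CTTTGAT (3.21%) for TCF/LEF factors, AATCCAC for FOXH1 (2.10%), CAGACA for SMAD factors (17.1%), and for homeodomain factors TAATCC (6.25%) or TAATTA (4.84%). The 4 motifs of core promoters (both TATA forms, which can overlap, the CCAAT box and the cAMP response element) were added after these sequences were read. Alternatives changed the filter, normalization, pseudocount, trend, block and probe-set rule, and left out single arrays and lines.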

Additional observations from a re-analysis of the deposited data

Results flagged for a closer look

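Haploid EpiSC-2 was called above the mean of the diploid lines and haploid EpiSC-1 below it for 4 probe sets. Their difference between the haploid lines also passed the threshold, but it is the difference of those values and adds no separate evidence. The log2 difference between the haploid lines was 1.80 for Eomes (1426001_at), 1.98 for Eomes (1435172_at), 3.92 for Lhx1 (1421951_at) and 2.999 for Mixl1, each higher in haploid EpiSC-2 on all 3 arrays. For Lhx1 (1421951_at), haploid EpiSC-2 overlapped diploid EpiSC-1 and was not called apart from it (0.10, limma adjusted p = 0.4479). On the brighter Lhx1 probe set, 1450428_at, haploid EpiSC-2 was not called against the diploid mean (0.18, limma adjusted p = 0.7588). Groups of 3 arrays were too small for a search for single outlying arrays.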

How the results depend on the processing

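The 7 calls between the haploid lines (both Eomes, Gsc, both Lhx1, Mixl1 and Fgf8) kept their direction and side of the threshold under every alternative run. Over all values of single probe sets, 971 were the same, 14 passed the threshold newly, 13 no longer passed and 2 reversed. The reversed ones were Eomes (1426001_at) in haploid minus diploid without the line haploid EpiSC-1, at 0.88, and Fgf8 in haploid EpiSC-1 against diploid EpiSC-2 alone, at 0.44.

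These counts of called probe sets moved by over 1.5 times. Haploid minus diploid gave 3157 of 19837 tested (15.9%). It gave 5655 of 34945 without the signal filter (16.2%) and 1913 of 11105 with 1 probe set per gene (17.2%). With the mean of all probe sets of a gene it gave 1603 of 10061 genes (15.9%). In these settings the number tested changed, and the share called stayed near that of the main fit. Of 19837, it gave 601 with line means (3.03%), 9133 without the line block (46.0%) and 2019 without the line haploid EpiSC-1 (10.2%). With 1 probe set per gene, haploid EpiSC-2 minus haploid EpiSC-1 gave 6288 (9827 before), haploid EpiSC-1 minus both diploid lines 8149 (13691), haploid EpiSC-2 minus both diploid lines 7367 (12206) and diploid EpiSC-2 minus diploid EpiSC-1 6196 (10574). With the mean of probe sets these comparisons gave, in the same order, 4616, 6466, 5670 and 4675. These counts are out of 11105 probe sets and 10061 genes, against 19837 probe sets before, so a lower count is not a lower share. Without 1 array the 5 counts, in the order given above, lay at 2845 to 2978, 8784 to 9969, 12764 to 13725, 11091 to 12160 and 9503 to 10626. With arrays centred on their medians, haploid minus diploid had 1369 higher and 1663 lower, against 1859 and 1298. With the replicate number as a block (replicate block), Gsc between the haploid lines stayed at 4.37 (limma adjusted p = 5.621e-05) and the haploid minus diploid count was 2692; the numbers do not pair the arrays, and the block changed no call of a member between the haploid lines.

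Between the diploid lines, Evx1 lost its call in 5 alternatives (limma adjusted p = 0.06149 without the filter) and Lhx1 (1450428_at) in 7 (0.06831 without the trend, and without any single diploid array). Fgf8 in haploid EpiSC-1 minus both diploid lines gained a call with quantile normalization (-0.25) and with median centring (-0.29). The causes were not tested. Folds against signals near background, as for Gsc in haploid EpiSC-1, are limited by the signal there, and p values measure the spread within 4 lines.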
